A study of Mus musculus with 10 samples.

Results

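The Notch pathway genes described here are Jag1, Notch1, Notch2, Rbpj, Hes1 and Hey1, taken by symbol from a table of gene-level read counts. They are 6 of the 23284 genes in that table, and all 6 were among the 12918 genes with enough counts to be tested. The libraries hold polyadenylated RNA of C57BL/6J mouse macrophages, phagocytes grown from bone marrow cells with macrophage colony-stimulating factor (M-CSF). The cells received Kdo2-lipid A, the lipid A end of bacterial lipopolysaccharide with its Kdo sugars, which activates Toll-like receptor 4 (TLR4). The 5 groups were untreated cells at 0 h, cells at 0.03 nM for 1 h and for 2 h, and cells at 10 nM for 1 h and for 2 h. No genetic change is named for any of them, and all of them had the same strain and culture. Each group had 2 libraries, 1 from each of 2 experiments that the labels call independent without saying whether the mice differed.

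Notch signalling passes between touching cells. A Jagged or Delta-like ligand on one cell binds a Notch receptor on its neighbour, ADAM proteases and gamma-secretase then cut the receptor, and the freed intracellular domain enters the nucleus. There it binds the DNA-binding protein Rbpj, which acts as a repressor without it and as an activator with it, and the classical targets are the Hes and Hey repressors. In macrophages Notch and TLR signals are known to meet: TLR ligands raise Jag1, and Hes1 and Hey1 are known to restrain cytokine genes.

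Library totals ran from 33179599 to 42167096 counts. Tnf, a direct TLR4 response gene, was higher in every treated group by 4.17 to 8.73 log2 units, and Nfkbia, the inhibitor of NF-kB that NF-kB induces, by 2.16 to 4.66. The 10 macrophage marker genes summed to 24284 to 33288 CPM (read counts scaled to a common library size), and the 12 stromal or endothelial markers to 49.1 to 124 CPM. Dendritic cell and neutrophil markers had higher sums at 10 nM and 2 h than in untreated cells. The 8 dendritic cell markers summed to 46.9 to 48.2 CPM at 10 nM and 2 h, against 29.2 to 34.6 CPM in untreated cells, and 5 of the 8 rose there. The 8 neutrophil markers in the table summed to 31.4 to 38.4 CPM, against 19.1 to 26.5 CPM, and 3 of the 8 rose. All 16 had counts in every group, and their part in the results was not tested. In that comparison 28.6% of all tested genes rose and 30.1% fell. Of the 4 B cell markers tested, none rose and 1 fell there, and the 1 T or NK cell marker tested was not called. Of the 10 macrophage markers, 3 rose and 2 fell there. All CPM values and fold changes below were scaled by TMM (a trimmed mean of gene ratios), which sets the typical gene level across libraries. Scaling by library totals instead put the median of all genes at -0.38 log2 for 10 nM at 1 h and at -0.59 for 10 nM at 2 h against untreated cells. It also put the share of rises among called genes at 15.9% in place of 50.3%, and at 19.4% in place of 48.8%. A change is thus a change relative to the median gene. The untreated libraries were all taken at 0 h, so a difference from them cannot be told apart from time in culture or handling, and these 2 libraries are shared by 4 comparisons.

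Jag1 encodes the ligand Jagged1. It lies on chromosome 2 of the mm9 genome at 136907187 to 136942256, minus strand, with 26 exons and 5493 exonic bases. Notch1, a receptor, lies on chromosome 2 at 26313422 to 26359342, minus strand, with 34 exons and 9489 exonic bases, and its paralogue Notch2 on chromosome 3 at 97817461 to 97954290, plus strand, with 34 exons and 10506 exonic bases. Rbpj lies on chromosome 5 at 53947018 to 54048684, plus strand, with 13 exons and 5817 exonic bases. The target Hes1 lies on chromosome 16 at 30065443 to 30067882, plus strand, with 4 exons and 1451 exonic bases, and the target Hey1 on chromosome 3 at 8663359 to 8667038, minus strand, with 5 exons and 2205 exonic bases. The counts cover exons, and no exon of these 6 genes overlapped an exon of another gene in the table.

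Because they carry most of the changes below, Jag1, Notch1, Notch2 and Rbpj are shown by the 250 bases before their RefSeq start site, from the GRCm38.p6 build, 5′ to 3′ on each gene's own strand. The RefSeq table matched these 4 of the 6 genes. These are chr2:137116521-137116770 for Jag1, chr2:26503823-26504072 for Notch1, chr3:98013288-98013537 for Notch2 and chr5:53590096-53590345 for the upstream of 2 listed Rbpj starts. Capitals mark matches, on either strand, to the Rbpj core TGGGAA or to the NF-kB consensus.
Jag1: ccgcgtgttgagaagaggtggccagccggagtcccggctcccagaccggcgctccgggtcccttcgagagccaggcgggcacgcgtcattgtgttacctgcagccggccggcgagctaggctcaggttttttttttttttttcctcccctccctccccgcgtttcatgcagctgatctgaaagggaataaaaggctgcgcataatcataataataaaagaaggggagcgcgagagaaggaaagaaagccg
Notch1: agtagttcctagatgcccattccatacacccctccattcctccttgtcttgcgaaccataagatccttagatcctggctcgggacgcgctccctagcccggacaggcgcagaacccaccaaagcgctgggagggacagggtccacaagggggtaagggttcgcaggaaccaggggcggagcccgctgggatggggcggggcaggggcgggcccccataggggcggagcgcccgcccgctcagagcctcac
Notch2: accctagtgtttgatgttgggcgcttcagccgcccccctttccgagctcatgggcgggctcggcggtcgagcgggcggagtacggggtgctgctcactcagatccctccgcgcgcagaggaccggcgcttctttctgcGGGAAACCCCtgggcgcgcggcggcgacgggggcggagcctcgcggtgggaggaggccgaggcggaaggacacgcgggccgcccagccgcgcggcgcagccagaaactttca
Rbpj: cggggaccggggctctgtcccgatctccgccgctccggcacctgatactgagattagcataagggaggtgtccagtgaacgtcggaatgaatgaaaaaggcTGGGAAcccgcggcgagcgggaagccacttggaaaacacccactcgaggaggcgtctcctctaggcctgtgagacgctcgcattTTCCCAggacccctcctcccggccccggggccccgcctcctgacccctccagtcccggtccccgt
Rbpj has the core at -149 to -144 on the plus strand, and again at -65 to -60 on the minus strand. Notch2 has an NF-kB match at -112 to -103, which reads on both strands. No match to the Rbpj core overlapped it, and neither motif matched these windows of Jag1 and Notch1. Of 32851 such windows of 250 bases, 21.6% held the Rbpj core and 7.25% the NF-kB consensus. A match is a description of the letters and no evidence of binding.

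Jag1 was the most changed of the 6 genes. Its level was 7.88 and 8.10 CPM in untreated cells, 12.4 and 13.6 CPM after 1 h at 0.03 nM, and 40.8 and 32.0 CPM after 2 h at 0.03 nM. It was 212 and 232 CPM after 1 h at 10 nM, and 99.0 and 112 CPM after 2 h at 10 nM. No 2 groups overlapped, and the order of the groups was the same in both experiments. Against untreated cells the log2 fold change was 4.80 ± 0.13 (SE) at 10 nM and 1 h, a 27.8-fold difference (edgeR quasi-likelihood test with Benjamini-Hochberg adjustment over all tested genes, adjusted p = 1.63e-10), and 3.72 ± 0.13 at 2 h (13.2-fold, adjusted p = 3.96e-10). On the authors' regularised log2 values, which by construction pull differences toward 0, these were 3.23 and 2.43, and both had an adjusted p under 0.05 in limma. Adjusted p-values below are from the edgeR test, in the main fit or in the alternative fit named beside them, unless another tool is named. In bulk RNA, a change in RNA per cell and a change in the number of cells that express a gene cannot be told apart.

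Jag1 responded to the low dose as well. At 0.03 nM it rose 4.55-fold after 2 h (log2 2.19 ± 0.12, adjusted p = 4.23e-07) and 1.63-fold after 1 h (log2 0.70 ± 0.13, adjusted p = 0.0132). Leaving out 1 library ended the 1 h call for the untreated one of experiment 1 (adjusted p = 0.169), the untreated one of experiment 2 (0.117) and the 0.03 nM 1 h one of experiment 2 (0.167). So did limma-voom (0.0721), and the log2 change was 0.63 to 0.72 in these 4 fits. The 2 h difference was 1.32 on the regularised log2 values. Stromal and endothelial cells also express Jag1, and their 12 markers summed to 52.9 and 99.6 CPM after 1 h at 10 nM and to 49.1 and 89.0 CPM in untreated cells. In no group were more than 1 of the 12 without a count, and in each group 9 to 12 of them were higher in experiment 2. Jag1 itself rose 26.9-fold within experiment 1 and 28.7-fold within experiment 2 at 10 nM and 1 h. Of the 10 of these markers that were tested, 2 rose at 10 nM and 2 h, where 28.6% of all tested genes rose. None was called at 0.03 nM and 1 h, 0.03 nM and 2 h, or 10 nM and 1 h. The shares of all tested genes called there were 1.53%, 9.82% and 36.9% in turn. A part of such cells in the Jag1 rise was not tested.

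**Figure D1:**
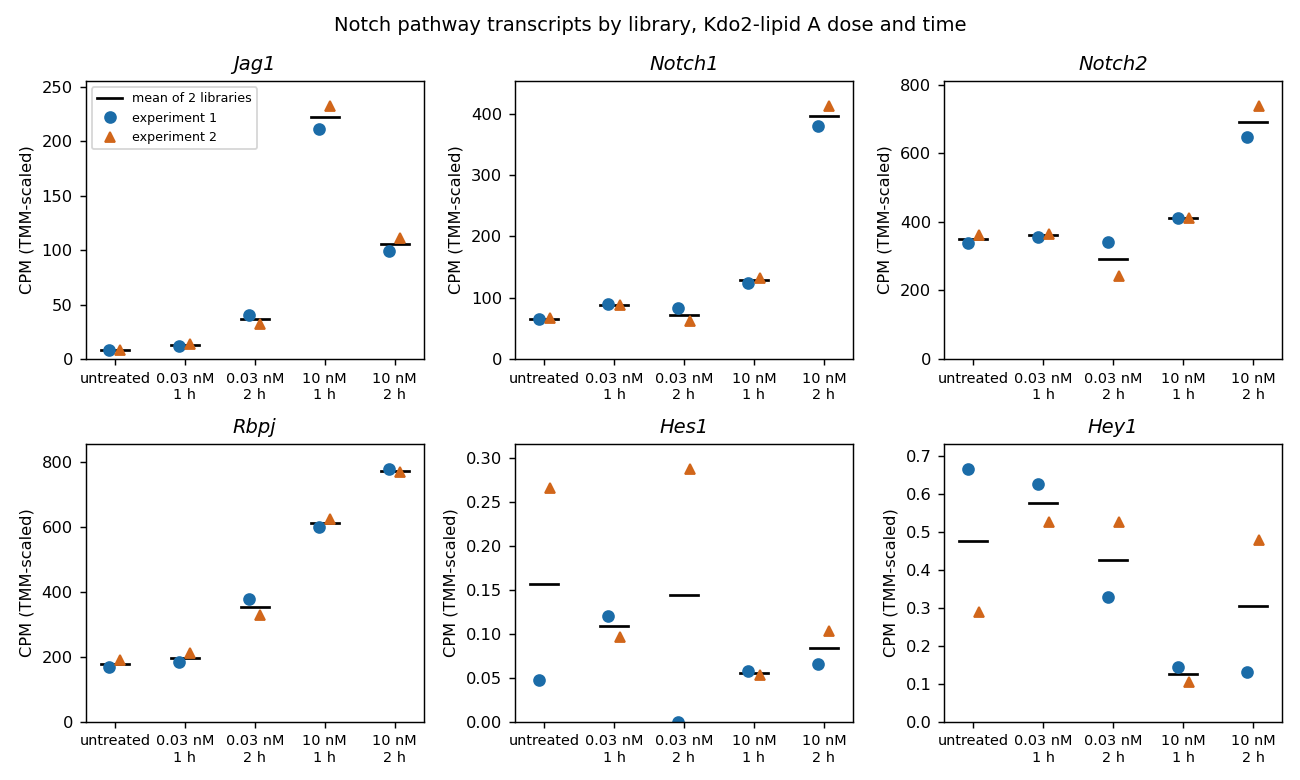
Level of each gene in every library in TMM-scaled CPM (linear axes from 0, a different range in each panel), by dose and time of Kdo2-lipid A; circles are experiment 1, triangles experiment 2 and bars the mean of the 2 libraries. Jag1 is highest after 1 h at 10 nM (212 and 232 CPM), Notch1, Notch2 and Rbpj after 2 h at 10 nM, and Hes1 and Hey1 stay below 1 CPM.

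Notch1 rose at the high dose, by more after 2 h than after 1 h. It had 64.7 and 66.2 CPM in untreated cells, 90.0 and 87.7 CPM after 1 h at 0.03 nM, and 82.9 and 62.0 CPM after 2 h at 0.03 nM. After 1 h at 10 nM it had 124 and 133 CPM, and after 2 h at 10 nM 381 and 412 CPM. Both 10 nM groups stood above every other library, and untreated cells overlapped the 2 h group at 0.03 nM but not the 1 h group, which was higher in both experiments. The log2 fold change against untreated cells was 0.97 ± 0.12 at 10 nM and 1 h (adjusted p = 3.40e-05) and 2.60 ± 0.12 at 10 nM and 2 h (6.06-fold, adjusted p = 4.31e-09; 1.85 on the regularised log2 values). At 0.03 nM it was 0.44 ± 0.11 after 1 h (95% interval 0.19 to 0.69, adjusted p = 0.126) and 0.15 ± 0.11 after 2 h (95% interval -0.11 to 0.40, adjusted p = 0.506). The 1 h difference at 0.03 nM passed the test in 7 of 20 alternative analyses, among them those without the experiment 1 library at 0.03 nM and 2 h (adjusted p = 0.0018) and without its experiment 2 counterpart (0.00214). The 2 h difference was 0.35 without the library of experiment 2 at 0.03 nM and 2 h (adjusted p = 0.00993) and -0.08 without that of experiment 1.

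Notch2 was already abundant and moved later and less. It had 338 and 363 CPM in untreated cells, 356 and 365 CPM after 1 h at 0.03 nM, and 341 and 241 CPM after 2 h at 0.03 nM. It had 410 and 411 CPM after 1 h at 10 nM and 646 and 737 CPM after 2 h at 10 nM. The 2 h libraries at 10 nM stood apart from all others, while untreated cells overlapped the 0.03 nM groups. At 10 nM and 2 h the log2 fold change against untreated cells was 0.98 ± 0.13 (1.97-fold, adjusted p = 7.82e-05). Over 20 alternative analyses the log2 fold change there ran from 0.42 to 1.07. At 10 nM and 1 h it was 0.23 ± 0.13 (95% interval -0.07 to 0.52, adjusted p = 0.219), and scaling by library totals turned it to -0.14. That difference passed the test without either 0.03 nM 2 h library (adjusted p = 0.0126 without experiment 1 and 0.0151 without experiment 2). At 0.03 nM the change was 0.04 ± 0.13 after 1 h and -0.27 ± 0.13 after 2 h (95% interval -0.56 to 0.03, adjusted p = 0.275), and the 2 h change was -0.54 (adjusted p = 0.000483) without the experiment 1 library at 0.03 nM and 2 h.

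Rbpj, the nuclear partner of every Notch receptor, rose with dose and time. Its level was 168 and 191 CPM in untreated cells, 184 and 211 CPM after 1 h at 0.03 nM, and 378 and 328 CPM after 2 h at 0.03 nM. It reached 599 and 624 CPM after 1 h at 10 nM and 778 and 768 CPM after 2 h at 10 nM. Only untreated cells and the 1 h group at 0.03 nM overlapped. The log2 fold change against untreated cells was 0.14 ± 0.10 at 0.03 nM and 1 h (95% interval -0.07 to 0.35, adjusted p = 0.908) and 0.98 ± 0.10 at 0.03 nM and 2 h (1.97-fold, adjusted p = 3.63e-05). At 10 nM it was 1.77 ± 0.10 after 1 h (3.41-fold, adjusted p = 4.35e-08) and 2.11 ± 0.10 after 2 h (4.31-fold, adjusted p = 4.97e-09; 1.47 on the regularised log2 values).

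The targets Hes1 and Hey1 were near the limit of detection. Hes1 had 2 and 11 counts in untreated cells, 5 and 4 after 1 h at 0.03 nM, 0 and 12 after 2 h at 0.03 nM, 2 and 2 after 1 h at 10 nM, and 2 and 3 after 2 h at 10 nM. The count of 0 allows up to 3 counts, or 0.0821 CPM in that library. In CPM every treated group overlapped the untreated libraries, and no comparison called Hes1 in edgeR (unadjusted p of 0.293 or above in all 9) or in any alternative. Its 95% interval at 10 nM and 2 h against untreated cells ran from -3.65 to 1.91 log2. These few counts thus allow a rise, a fall or no change within that interval.

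Hey1 had 28 and 12 counts in untreated cells, 26 and 22 after 1 h at 0.03 nM, 12 and 22 after 2 h at 0.03 nM, 5 and 4 after 1 h at 10 nM, and 4 and 14 after 2 h at 10 nM. The 1 h group at 10 nM, at 0.145 and 0.106 CPM, lay below the 1 h group at 0.03 nM, at 0.627 and 0.527 CPM, and below the untreated cells, at 0.667 and 0.289 CPM. Against 0.03 nM at 1 h the log2 fold change was -2.18 ± 0.71 (adjusted p = 0.0327), and -0.64 on the regularised log2 values. That call was lost without any 1 of its 4 libraries, with adjusted p of 0.0741 and 0.122 without the 0.03 nM libraries of experiments 2 and 1, and 0.110 and 0.171 without the 10 nM libraries of experiments 1 and 2. Against untreated cells it was -1.91 ± 0.73 (adjusted p = 0.0591). This passed under library totals (-2.27, adjusted p = 0.0162), with only these groups in the fit (0.0397), and with the experiment 2 untreated library (0.0439) left out, or either 10 nM 2 h library (0.0450 without experiment 1, 0.0475 without experiment 2).

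**Figure D2:**
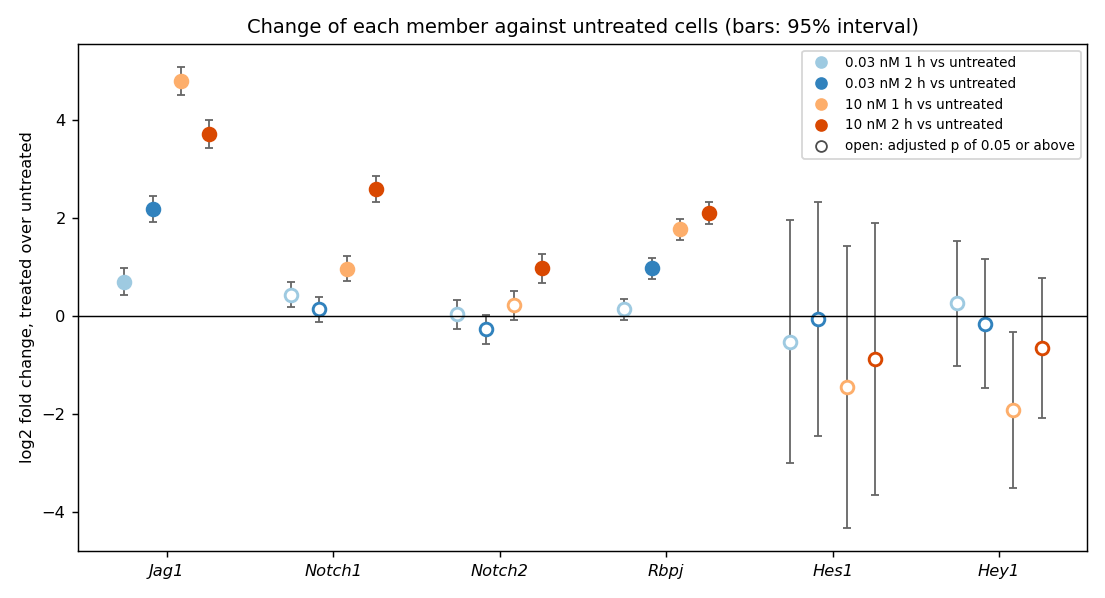
Log2 fold change of each gene over untreated cells (vertical axis) in the 4 treated groups; bars are 95% intervals derived from the edgeR test, and open points have an adjusted p of 0.05 or above. Jag1 spans 0.70 to 4.80, Notch1, Notch2 and Rbpj are highest at 10 nM and 2 h (2.60, 0.98 and 2.11), and the intervals of Hes1 and Hey1 are wide.

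Counted together against untreated cells, 1 of the 6 genes was called at 0.03 nM and 1 h, where 1.53% of all tested genes were called (1.42% up and 0.108% down). At 0.03 nM and 2 h it was 2 of 6 (Jag1 and Rbpj), beside 9.82% of all tested genes (6.45% up, 3.37% down). At 10 nM it was 3 of 6 after 1 h, beside 36.9% (18.5% up, 18.3% down), and 4 of 6 after 2 h, beside 58.7% (28.6% up, 30.1% down). All calls of the 6 genes were rises. At the high dose the share of these genes called was near that of all genes. The median log2 fold change of the 6 genes was 0.20, 0.04, 0.60 and 1.54 in these 4 comparisons in turn, beside medians of all tested genes of -0.00070, -0.00077, -0.02 and -0.03. The count of 1 at 0.03 nM and 1 h ran from 0 to 2 over the alternative analyses, as given for Jag1 and Notch1 above.

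The dose comparison at equal time is free of the 0 h control. At 10 nM against 0.03 nM, 4 of the 6 genes were called after 1 h, 3 higher and 1 lower, where 35.3% of all tested genes were called (18.0% higher, 17.3% lower). After 2 h it was 4 of 6, all higher, beside 52.8% (25.6% higher, 27.2% lower). Jag1 was 17.1-fold higher at 10 nM after 1 h (log2 4.09 ± 0.13, adjusted p = 6.80e-10) and 2.89-fold higher after 2 h (log2 1.53 ± 0.11, adjusted p = 4.16e-07). The dose gap of Rbpj also was larger at 1 h (log2 1.63 ± 0.10) than at 2 h (1.13 ± 0.10). The receptors ran the other way. Notch1 stood 0.53 ± 0.11 log2 higher at 10 nM after 1 h (adjusted p = 0.0033) and 2.45 ± 0.12 higher after 2 h (adjusted p = 1.30e-08), and Notch2 0.19 ± 0.13 after 1 h (95% interval -0.11 to 0.48, adjusted p = 0.317) and 1.25 ± 0.14 after 2 h (adjusted p = 1.59e-05). Under library totals the 1 h dose gap of Notch1 was 0.17 (adjusted p = 0.223) and that of Notch2 -0.17. On the regularised log2 values the gap of Jag1 at 1 h was 2.84 and that of Notch1 at 2 h 1.76. The 1 h gap of Notch2 passed the test when a 0.03 nM 2 h library was left out (adjusted p = 0.0336 for experiment 1, 0.0452 for experiment 2). Hes1 was at -0.93 ± 1.39 after 1 h and -0.81 ± 1.28 after 2 h, and Hey1, lower after 1 h as given above, at -0.50 ± 0.66 after 2 h (adjusted p = 0.561).

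Over the second hour, 4 of the 6 genes were called at 10 nM, 3 higher and 1 lower at 2 h, beside 42.8% of all tested genes (21.3% higher, 21.5% lower). At 0.03 nM it was 2 of 6, both higher, beside 5.11% (3.51% higher, 1.59% lower). Jag1 at 10 nM was lower at 2 h than at 1 h by a log2 change of -1.08 ± 0.11 (adjusted p = 1.22e-05), and at 0.03 nM it was higher by 1.48 ± 0.12 (adjusted p = 3.35e-05). Notch1 at 10 nM was 3.09-fold higher at 2 h (log2 1.63 ± 0.12, adjusted p = 7.38e-07), while at 0.03 nM its change was -0.30 ± 0.11 (adjusted p = 0.198). Notch2 at 10 nM was 1.68-fold higher at 2 h (log2 0.75 ± 0.13, adjusted p = 0.000983), and at 0.03 nM its change was -0.31 ± 0.13 (adjusted p = 0.255). Without the experiment 1 library at 0.03 nM and 2 h, the low-dose falls passed the test at -0.52 for Notch1 (adjusted p = 0.000595) and -0.58 for Notch2 (adjusted p = 0.00044). Rbpj was higher at 2 h at both doses, by 0.34 ± 0.10 at 10 nM (adjusted p = 0.0132) and 0.84 ± 0.10 at 0.03 nM (adjusted p = 0.000318). Its 10 nM call was lost under library totals (0.15, adjusted p = 0.241) and without any 1 of the 4 libraries compared (adjusted p = 0.102 and 0.0536 without the 1 h libraries of experiments 1 and 2, and 0.0711 and 0.0554 without the 2 h libraries of experiments 1 and 2). Neither target was called. Hey1 was at 1.26 ± 0.80 at 10 nM (95% interval -0.49 to 3.01, adjusted p = 0.230) and -0.42 ± 0.59 at 0.03 nM (adjusted p = 0.762), and Hes1 at 0.57 ± 1.54 and 0.46 ± 1.14.

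The change over the second hour differed between the doses for 4 of the 6 genes, by the interaction of dose and time, which called 22.0% of all tested genes (10.4% above 0, 11.6% below). The 2 h over 1 h change at 10 nM minus that at 0.03 nM was 1.92 ± 0.16 log2 for Notch1 (adjusted p = 1.08e-05) and 1.06 ± 0.19 for Notch2 (adjusted p = 0.00231). It was -2.56 ± 0.16 for Jag1 (adjusted p = 1.67e-06; -1.73 on the regularised log2 values) and -0.50 ± 0.14 for Rbpj (adjusted p = 0.0200). The Rbpj call was lost when any of 5 libraries was left out: the 0.03 nM 1 h one of experiment 1 (adjusted p = 0.0742), either 10 nM 1 h library (0.0563 without experiment 1, 0.0800 without experiment 2) or either 10 nM 2 h library (0.0586 without experiment 1, 0.0692 without experiment 2). For Hey1 it was 1.68 ± 0.99 (95% interval -0.49 to 3.86, adjusted p = 0.277) and for Hes1 0.11 ± 1.76, which was -0.011 under library totals.

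**Figure D3:**
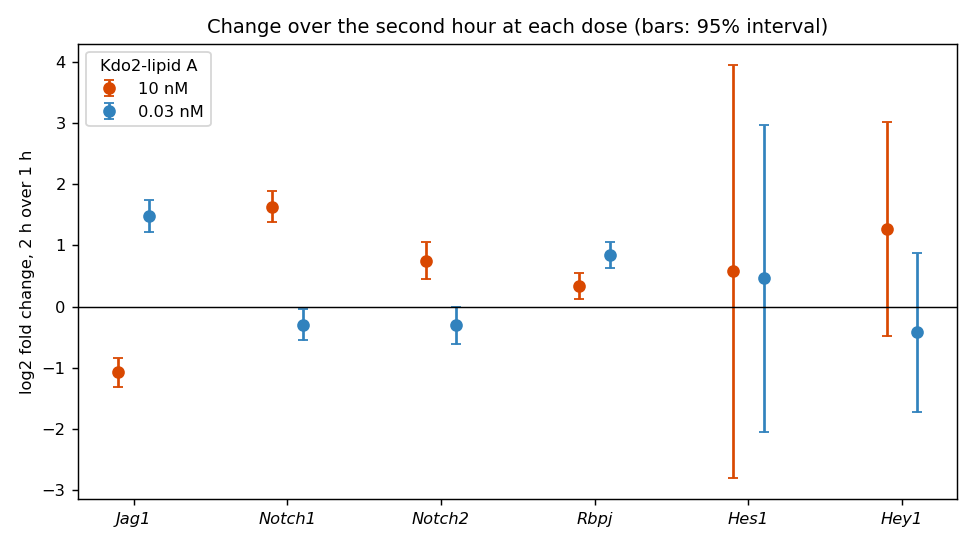
Log2 change of each gene at 2 h over 1 h (vertical axis) at 10 nM and at 0.03 nM; bars are 95% intervals derived from the edgeR test. Jag1 is below 0 at 10 nM (-1.08) and above 0 at 0.03 nM (1.48), and Notch1 and Notch2 are above 0 at 10 nM (1.63 and 0.75) and below 0 at 0.03 nM (-0.30 and -0.31).

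The libraries at 0.03 nM and 2 h differed between experiments in a way that followed gene length. In experiment 2, the change of that library from its own untreated library had a Spearman rho of -0.522 with exonic length across 10333 genes, and the other 7 such changes had -0.0669 to 0.180 (genes are not independent replicates). The difference of experiment 2 from experiment 1 within a group had a rho with length of -0.617 at 0.03 nM and 2 h. It was 0.290 in untreated cells and 0.296 at 10 nM and 2 h, so these groups differed by length too, in the other direction. At 1 h it was 0.0976 at 0.03 nM and -0.0142 at 10 nM. At 0.03 nM and 2 h, experiment 2 stood below experiment 1 by -0.50 log2 for Notch2, -0.42 for Notch1, -0.35 for Jag1 and -0.20 for Rbpj. In the other groups those differences ran from -0.04 to 0.19. Within experiment 1 and within experiment 2, Jag1 rose 5.18-fold and 3.95-fold at 0.03 nM and 2 h, and Rbpj 2.25-fold and 1.72-fold. Notch1 was at 1.28-fold and 0.936-fold there, and Notch2 at 1.01-fold and 0.664-fold, so for both receptors experiment 1 stood above its untreated library and experiment 2 below. A fit with a length offset called Notch1 at 0.03 nM after 1 h (0.43, adjusted p = 0.00141) and 2 h (0.30, adjusted p = 0.00394).

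In RPKM, which divides CPM by exonic length, the 6 genes ran over a wide range of levels. In untreated cells Notch2 averaged 33.4 RPKM and Rbpj 30.8 RPKM, which overlapped, followed by Notch1 at 6.90, Jag1 at 1.45, Hey1 at 0.217 and Hes1 at 0.108 RPKM, where Hey1 and Hes1 overlapped. After 1 h at 0.03 nM Notch2 and Rbpj averaged 34.3 and 34.0 RPKM and overlapped, with Notch1 at 9.36 and Jag1 at 2.37 RPKM. After 2 h at 0.03 nM Rbpj averaged 60.7, Notch2 27.7, Notch1 7.63 and Jag1 6.63 RPKM, and only Notch1 and Jag1 overlapped among these. After 1 h at 10 nM the order was Rbpj at 105, Jag1 at 40.4 and Notch2 at 39.1 RPKM, the last pair overlapping, and Notch1 at 13.5 RPKM. After 2 h at 10 nM it was Rbpj at 133, Notch2 at 65.8, Notch1 at 41.8 and Jag1 at 19.2 RPKM, with no overlap among them. By RPKM, Jag1 stood at the 24.4th percentile of the tested genes in untreated cells, the 84.7th after 1 h at 10 nM and the 70.9th after 2 h. Notch1 stood at the 50.1st percentile in untreated cells, the 64.8th after 1 h at 10 nM and the 83.1st after 2 h.

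Across the 10 libraries, log2 CPM of Notch1 and Notch2 had a Pearson r of 0.951, and Jag1 and Rbpj of 0.945. These describe 5 groups of 2 libraries each and are not independent points. The genes most alike to Notch1 in that measure, among 10332 compared, were Sirt1 (r = 0.997), a NAD-dependent deacetylase, Pfkfb3 (0.994), a regulator of glycolysis, and Fcgr2b (0.994), the inhibitory Fc receptor. For Jag1 they were Sema6d, Zfand5 and Zc3h12c (0.995 to 0.996), for Rbpj Ell2, N4bp1 and Phldb1 (0.995 to 0.996), and for Notch2 Kif1b, 4831426I19Rik and Tpr (0.990 to 0.993). For Hey1, with few counts, the closest were Gstm4, Ppif and Sssca1 (0.895 to 0.937).

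Of 75 other genes listed for the pathway, all were in the table and 61 were tested. Against untreated cells at 10 nM and 2 h, 20 of the 61 rose and 20 fell, beside 28.6% and 30.1% of all tested genes, at a list median of -0.03 log2, beside -0.03 for all tested genes. At 10 nM and 1 h, 16 rose and 7 fell, beside 18.5% and 18.3% of all tested genes, and at 0.03 nM and 2 h 6 rose and 1 fell, beside 6.45% and 3.37%. Of experiment 1, leaving out the untreated library gave 3 calls in place of these 7, and leaving out the 0.03 nM 2 h library gave 20. At 0.03 nM and 1 h only Cdkn1a (0.90 ± 0.15, adjusted p = 0.0115) and Myc (1.06 ± 0.17, adjusted p = 0.00763) were called. Both calls were lost without the experiment 1 untreated library, without the experiment 2 library at 0.03 nM and 2 h, and with only these groups in the fit. The Cdkn1a call was also lost with a length offset and without the experiment 1 library at 0.03 nM and 2 h, and the Myc call without the experiment 2 library at 0.03 nM and 1 h. Under library totals the rises and falls were 12 and 38 at 10 nM and 2 h, and 7 and 25 at 10 nM and 1 h. At 10 nM against 0.03 nM, 14 were higher and 8 lower after 1 h (18.0% and 17.3% of all tested genes), and 19 higher and 15 lower after 2 h (25.6% and 27.2%). At 2 h against 1 h at 10 nM, 12 were higher and 22 lower (21.3% and 21.5%). The list thus held both directions at 10 nM, and its split moved with the scaling. The counts of rises and falls at 10 nM and 2 h in the 5 lists below are likewise to be read against the 28.6% and 30.1% of all tested genes.

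Among the other receptors and ligands, 5 of 9 were tested, and 3 of them rose at 10 nM and 2 h. Dll1, a Delta-like ligand, had 268 and 277 counts after 2 h at 10 nM, against 0 and 5 counts in untreated cells. The fitted log2 fold change was 7.17 ± 0.50 (adjusted p = 1.55e-07) and ran from 6.20 to 11.4 as libraries were left out, since the untreated libraries held so few counts. At 10 nM and 1 h Dll1 had 10 and 8 counts (adjusted p = 0.0527). At 0.03 nM and 2 h it had 14 and 13 counts (log2 2.46 ± 0.69, adjusted p = 0.0427), a call lost with the experiment as a block (adjusted p = 0.0541) and in 9 of 10 fits without 1 library, the exception being the experiment 2 untreated library. Dll4, another Delta-like ligand, had 25 and 28 counts at 10 nM and 2 h against 13 and 10 in untreated cells (log2 1.68 ± 0.60, adjusted p = 0.0309). That call was lost without any 1 of those 4 libraries and under library totals (1.12, adjusted p = 0.107), and exons of Gm14207 overlap it on the other strand. Jag2, the other Jagged ligand, had 12 and 40 counts at 10 nM and 2 h against 61 and 82 in untreated cells (log2 -0.97 ± 0.41, adjusted p = 0.0639). This passed the test under library totals (-1.52, adjusted p = 0.00523), and ran from -2.11 to -0.33 as libraries were left out.

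The genes of receptor cleavage were tested in full, and 4 of 10 rose and 2 fell at 10 nM and 2 h. Adam17, a sheddase of Notch and Tnf, rose by 1.11 ± 0.08 log2 (adjusted p = 1.78e-07), and Furin, which cuts the receptor precursor, by 0.96 ± 0.08 (adjusted p = 6.32e-07). Aph1c, a gamma-secretase subunit, fell by 1.47 ± 0.10 log2 (adjusted p = 1.66e-07), with the caveat that its near-identical copy Aph1b can share its reads. Exons of Iah1 overlap Adam17 on the other strand. The gamma-secretase genes Psenen, Psen2 and Ncstn moved by 0.33 ± 0.11, -0.27 ± 0.08 and 0.24 ± 0.08. Under library totals Ncstn was at -0.32 (adjusted p = 0.00242), a fall that passed the test, and Psenen at -0.22 (adjusted p = 0.0757). All 3 calls were lost when the experiment 1 untreated library was left out.

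In the list of receptor and ligand modification and trafficking, 18 of 19 genes were tested, and 3 rose and 10 fell at 10 nM and 2 h. Mfng, a fringe glycosyltransferase that tunes which ligand a receptor answers, had 2.56 and 2.22 CPM against 7.88 and 7.83 CPM in untreated cells (log2 -1.71 ± 0.15, adjusted p = 1.38e-06). Neurl1b, an E3 ligase for ligand endocytosis, had 0.525 and 0.479 CPM against 4.10 and 4.70 CPM (log2 -3.12 ± 0.25, adjusted p = 4.60e-07), and its relative Neurl1a fell by 1.33 ± 0.30 log2 (adjusted p = 0.00243). Poglut1, which glucosylates Notch, rose by 1.19 ± 0.08 (adjusted p = 1.00e-07). Dtx2, a Deltex ubiquitin ligase, rose by 2.55 ± 0.13 (adjusted p = 9.16e-09). Dtx3l, a relative of Dtx2, rose by 2.00 ± 0.22 (adjusted p = 7.81e-05), and exons of Parp9 overlap it on the other strand.

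**Figure D4:**
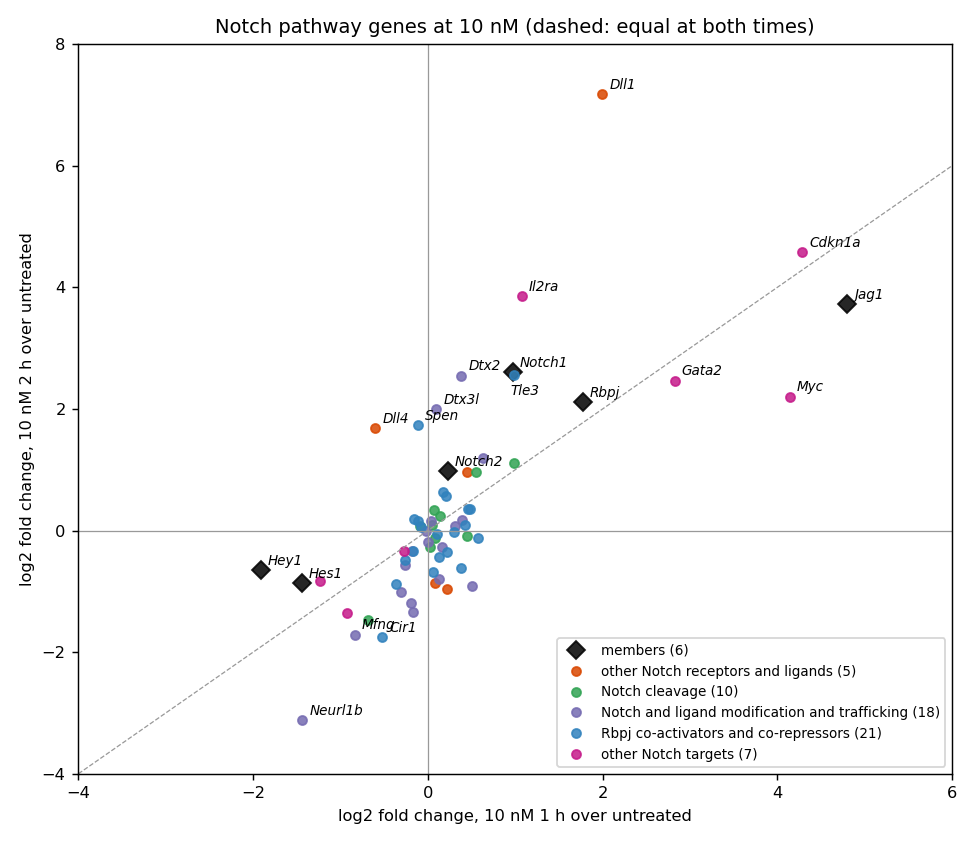
Log2 fold change over untreated cells at 10 nM after 2 h (vertical axis) and after 1 h (horizontal axis) for the Notch pathway genes tested, with the 6 genes and the most changed others labelled, and the dashed line marking equal changes; both axes share the 2 untreated libraries. Jag1 (3.72 at 2 h, 4.80 at 1 h) and Myc (2.20 at 2 h, 4.14 at 1 h) lie below the line, and Notch1 (2.60 at 2 h, 0.97 at 1 h), Tle3 (2.56 at 2 h, 0.98 at 1 h) and Dtx2 (2.55 at 2 h, 0.38 at 1 h) above it.

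Of the 22 co-activators and co-repressors of Rbpj, 21 were tested, and 6 rose and 7 fell at 10 nM and 2 h. Tle3, a Groucho-type co-repressor, had 301 and 335 CPM against 50.3 and 57.5 CPM in untreated cells (log2 2.56 ± 0.12, adjusted p = 3.47e-09), and its relative Tle1 was at -0.68 ± 0.13 (adjusted p = 0.000728). Spen, a co-repressor that binds Rbpj, rose by 1.73 ± 0.17 (adjusted p = 1.51e-05), and exons of Zbtb17 overlap it on the other strand. Cir1, also a co-repressor, fell by 1.76 ± 0.10 log2 (adjusted p = 2.20e-08), and the co-activator Ep300 by 0.88 ± 0.20 (adjusted p = 0.00491). Hdac1, a deacetylase of the co-repressor complex, stood at 0.63 ± 0.08 (adjusted p = 3.20e-05), and at 0.07 under library totals (adjusted p = 0.421).

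Of 15 other genes listed as Notch targets or as members of the Hes and Hey families, 7 were tested. At 10 nM and 2 h, 4 rose and 1 fell. Cdkn1a, the cell cycle inhibitor p21, rose by 4.57 ± 0.17 (adjusted p = 4.20e-09), and Il2ra, an interleukin 2 receptor chain, by 3.86 ± 0.36 (adjusted p = 2.03e-06). Myc, a growth regulator, was at 4.14 ± 0.17 after 1 h and 2.20 ± 0.17 after 2 h, and Gata2, a haematopoietic factor, at 2.82 ± 0.47 and 2.46 ± 0.48. Gata2 had few counts, with 14 over both untreated libraries, 87 over those at 10 nM and 1 h and 56 at 10 nM and 2 h. Il2ra had 30 over both untreated libraries and 313 at 10 nM and 2 h. Hes6, a member of the Hes family, was lower, with 7.88 and 7.63 CPM against 19.9 and 19.9 CPM (log2 -1.36 ± 0.12, adjusted p = 1.27e-06). Most of these genes also have other known inducers.

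Il6, Il12b and Cxcl1, cytokine genes that Hes1 and Hey1 are reported to restrain, rose in every treated group but 1, the exception being Il6 at 0.03 nM and 1 h (log2 3.15 ± 1.03, adjusted p = 0.325). Hes1 and Hey1 were below 1 CPM in every group, untreated cells included, and a link between them and these genes was not tested. Il6 had 133 and 140 CPM after 2 h at 10 nM against 0 and 0.0241 CPM in untreated cells. Il12b, a subunit of interleukin 12, had 349 and 367 CPM against 0.50 and 0.53 CPM (log2 9.43 ± 0.14, adjusted p = 4.53e-12). Its rise at 0.03 nM and 1 h was 1.26 ± 0.19 log2 (adjusted p = 0.00458). That call was lost with limma-voom and with only the groups compared in the fit. It was also lost without the experiment 1 untreated library and without the experiment 2 library at 0.03 nM and 1 h. The change ran from 1.16 to 1.35 log2 as libraries were left out. Cxcl1, a neutrophil attractant, was higher at 1 h than at 2 h at 10 nM, with 832 and 698 CPM after 1 h and 267 and 250 CPM after 2 h, against 0.167 and 0.265 CPM in untreated cells. At 0.03 nM it was higher at 2 h than at 1 h, by 0.57 ± 0.11 log2 (adjusted p = 0.00886).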

How the data were processed

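The members and lists were chosen with earlier results of these data known. RNA was made into libraries with a directional kit, per the labels' protocols. The submitters' processing notes name TopHat2 2.0.11, featureCounts 1.4.5-p1, DESeq2 and mm9. The deposited counts are whole numbers of reads over exons per gene, per the file headers. The strand setting is not given in the sources used here, so genes overlapping on opposite strands cannot be separated. A second table holds the authors' regularised log2 values, deposited without their options.

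The tests were run in edgeR 4.0.16 under R 4.3.3: filterByExpr on the 5 groups, TMM scaling, and 1 robust quasi-likelihood model with a mean per group over all 10 libraries (5 residual degrees of freedom). A call is an adjusted p under 0.05 (Benjamini-Hochberg over 12918 genes, for each of 9 contrasts). Each SE is the size of the log2 fold change divided by the square root of the test's F statistic. The 95% intervals are symmetric, from that SE and the test's total degrees of freedom. With 2 libraries a group, the depth limits Hes1 and Hey1, and the number of libraries limits the rest. Alternatives were DESeq2 1.42.0, limma-voom (limma 3.58.1), other scalings, no filter, only the groups compared, a length offset, the experiment as a block, each library left out and, chosen after seeing the data, limma on the authors' log2 values. Experiment numbers come from the labels and mark a shared experiment. Over 10 pairs of groups, deviations from the group means correlated at -0.106 to 0.472 between same-numbered libraries (7 above 0.1). Scripts were checked on simulated data.

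All 6 members are named in every comparison. Other pathway genes are named if called against untreated cells, up to 6 a list by size of change, of which Dner is left out here (0.97 log2, a call lost without 7 of the 10 libraries in turn). The most alike genes are the 3 highest in Pearson r per called member, among genes whose mean log2 CPM (prior count 2) was 1 or more. Jag2, named for its place beside Jag1, was chosen after its values were seen. The markers of B cells summed to 4.92 to 9.74 CPM and of T or NK cells to 31.9 to 39.2. Of the 7 T or NK cell markers only Cd4 had enough counts to be tested, and in each group 1 to 5 of the 7 had no count.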

Additional observations from a re-analysis of the deposited data

Results flagged for a closer look

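The change over the second hour differed between the doses for 4 genes, by the interaction term of the edgeR model. At 10 nM against 0.03 nM this difference was 1.92 log2 for Notch1, 1.06 for Notch2, -2.56 for Jag1 and -0.50 for Rbpj. For Jag1 the direction itself was opposite, with both experiments lower at 2 h than at 1 h at 10 nM (0.467-fold and 0.480-fold) and higher at 0.03 nM (3.29-fold and 2.35-fold). The 0.03 nM side of each difference includes the 2 h library of experiment 2 that stood apart by gene length. Without it the differences were 1.70 for Notch1, 0.80 for Notch2, -2.75 for Jag1 and -0.62 for Rbpj, and all 4 passed the test.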

How the results depend on the processing

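Over 20 alternatives each, the 28 differences of the 6 genes that passed the test kept their direction in all 560 values and passed in 541. The 26 that did not pass gave 511 values, of which 24 passed and 24 had the other sign. The cause was not tested. The other signs came with library totals for Notch2 at 10 nM and 1 h against untreated cells (-0.14) and against 0.03 nM (-0.17; -0.0091 with a length offset and -0.0091 with the replicate block and length offset), and for the Hes1 interaction (-0.011), and with limma-voom for Hes1 at 10 nM against 0.03 nM at 2 h (0.54) and at 2 h against 1 h at 0.03 nM (-0.81). With 1 library left out, against untreated cells, Hes1 ran from -1.27 to 1.13 at 0.03 nM and 1 h, -5.57 to 1.58 at 0.03 nM and 2 h, -2.19 to 0.20 at 10 nM and 1 h and -1.62 to 0.77 at 10 nM and 2 h. Hey1 ran from -0.21 to 0.99, -0.63 to 0.57 and -1.84 to 0.065 at 0.03 nM and 1 h, 0.03 nM and 2 h, and 10 nM and 2 h. Notch1 ran from -0.079 to 0.35 at 0.03 nM and 2 h, and Notch2 from -0.0096 to 0.090 at 0.03 nM and 1 h. At 10 nM against 0.03 nM at 2 h, Hes1 ran from -1.74 to 4.68 and Hey1 from -1.69 to 0.15. For Hes1 the 2 h against 1 h change at 0.03 nM ran from -5.06 to 1.38 and the interaction from -0.81 to 5.62.

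Of the 6 genes, 1 was called at 0.03 nM and 1 h, 2 with no filter, DESeq2, only the groups compared, the length offset or the replicate block with length offset, 0 with limma-voom, and 0 to 2 with 1 library left out. At 10 nM and 1 h, only the groups compared gave 5. At 2 h against 1 h at 0.03 nM leaving out 1 library gave 2 to 4. Of all genes, against untreated cells, the replicate block with length offset called 350 at 0.03 nM and 1 h and 2011 at 2 h, where only the groups compared gave 655, and leaving out 1 library gave 78 to 251 and 650 to 3128. Library totals called 8035 at 10 nM and 1 h and 7789 against 0.03 nM. At 2 h against 1 h at 0.03 nM, 198 were called with only the groups compared, 1241 with the replicate block and length offset, and 285 to 2833 with 1 library left out. The interaction called 1897 to 3644 so. Of the other pathway genes, at 0.03 nM and 1 h 1 was called with only the groups compared, 5 with the replicate block and length offset, and 0 to 2 with 1 library left out. At 0.03 nM and 2 h it was 13 with the length offset, 16 with the replicate block and length offset, and 3 to 20 with 1 library left out. At 2 h against 1 h at 0.03 nM, 2 were called, 4 with library totals, 5 with DESeq2, 1 with only the groups compared, 4 with the length offset, 6 with the replicate block and length offset, and 0 to 17 with 1 library left out. The replicate block alone called 5 there, and it changed no call of the 6 genes.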

Other observations

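Of the other listed pathway genes, 14 of 75 had too few counts to be tested. Dll3, Rbpjl, the Rbpj-like factor, and Hes5 had 0 counts in all 10 libraries, where a count of 0 allows up to 3 counts, or 0.0715 to 0.103 CPM, per library. Hey2 and Hes3 had 4 counts each over all libraries and Heyl 2. Nrarp, a feedback target of Notch, had 16, with at most 4 in any library, and Notch3, another receptor, 38, with at most 12 in any library. Hes1 and Hey1 were thus not alone among the classical targets in being scarce. Hes6, listed here as a member of the Hes family, was read at 7.63 to 19.9 CPM.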
